A study of Cardamine hirsuta with 6 samples.

Results

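Some *C. hirsuta* genes drew more than 1 binding peak of the NAC-domain transcription factor ChCUC1 in DNA affinity purification sequencing (DAP-seq). A gene was counted here when at least 2 reproducible peaks were assigned to it in the peak annotation of the study, and this held for 110 of 1862 genes (5.91%), with 229 of the 1981 peaks that had a gene (11.6%). Scaffold NSCAFA.214I was left out with its 15 annotated peaks. Of the 110 genes, 101 had 2 peaks and 9 had 3 peaks, and the other 1752 genes had 1. The annotation was held for 1997 of the 2432 reproducible peaks, those with the highest −log10 p, so each count of peaks per gene is a lower limit. At that boundary, the weakest member peak, at CARHR203840, had a −log10 p of 26.7 and a fold enrichment of 2.51, and the strongest peak without a held annotation had 26.4 and 2.56.

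The study compared 3 ChCUC1_halo samples, in which ChCUC1 with an N-terminal HaloTag was made in a wheat germ expression system and captured on Magne HaloTag beads, with 3 halo control samples of the HaloTag alone. All samples used sheared genomic DNA of the Oxford genotype, taken from rosette leaves by the protocol, while the tissue label reads seedlings. The protein thus met purified DNA in vitro, without chromatin and outside any leaf cell type. The values are from 4 peak lists made by the authors, 1 of reproducible peaks and 3 called on single ChCUC1 libraries (the whole-library list with 4778 peaks, the longer pseudoreplicate list with 3753 and the shorter one with 3253), where a pseudoreplicate is a random part of the reads of a library. The lists hold no read counts, so the depth is unknown. Fold enrichment is the height of a peak in the ChCUC1 libraries over the halo control, a summit is its highest position, and coordinates are as in the lists, with no build named in the sources at hand. Because the number of peaks per gene was itself read from this comparison, all that follows is a description without tests, and intervals cover counting error over genes or peaks alone.

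CUP-SHAPED COTYLEDON proteins are plant-specific transcription factors of the NAC family, which bind DNA as dimers. They mark boundaries between organs, restrain growth there and act in the formation of leaf serrations and leaflets together with auxin, a hormone whose directional transport patterns the leaf margin. A gene can carry several binding sites of such a factor in its promoter, in exons and introns or behind its transcript end.

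The genes lay mostly on the chromosomes, with 108 on chromosomes 1 to 8 and 2 on scaffolds. Chromosome 8 held 23 of them, or 9.58% of its 240 genes with a peak, and chromosome 5 held 15 of 194 (7.73%). On the other chromosomes the share was between 4.45% on chromosome 6 and 5.75% on chromosome 7. An *A. thaliana* match was annotated for 83 of the 110 genes, whose gene names are used below, and 27 had none.

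Of the 119 gaps between neighbouring summits of a gene, 60 (50.4%) were from 1000 to 3000 bp. Over all gaps, the median distance between summits was 1703 bp (95% interval 1483 to 1961 bp), and the quartiles were 1160 and 3109 bp. Of these gaps, 27 were under 1000 bp, 45 from 1000 to 2000 bp, 15 from 2000 to 3000 bp, 22 from 3000 to 6000 bp and 10 above. From the end of a peak to the start of the next, the median was 1169 bp. In the genes with 3 peaks, the median of the 18 gaps was 1512 bp (1153 to 2402 bp), and in the genes with 2 peaks it was 1710 bp (1499 to 1981 bp). Peaks of a gene were joined by the gene start nearest to them, so their short gaps are in part set by that rule. Over the whole reproducible list, neighbouring summits lay a median of 35565 bp apart, and no pair was closer than 541 bp. Closer summits were thus absent from this list, whose member peaks had a median width of 502 bp. Whether closer sites exist or were not resolved was not tested.

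**Figure D1:**
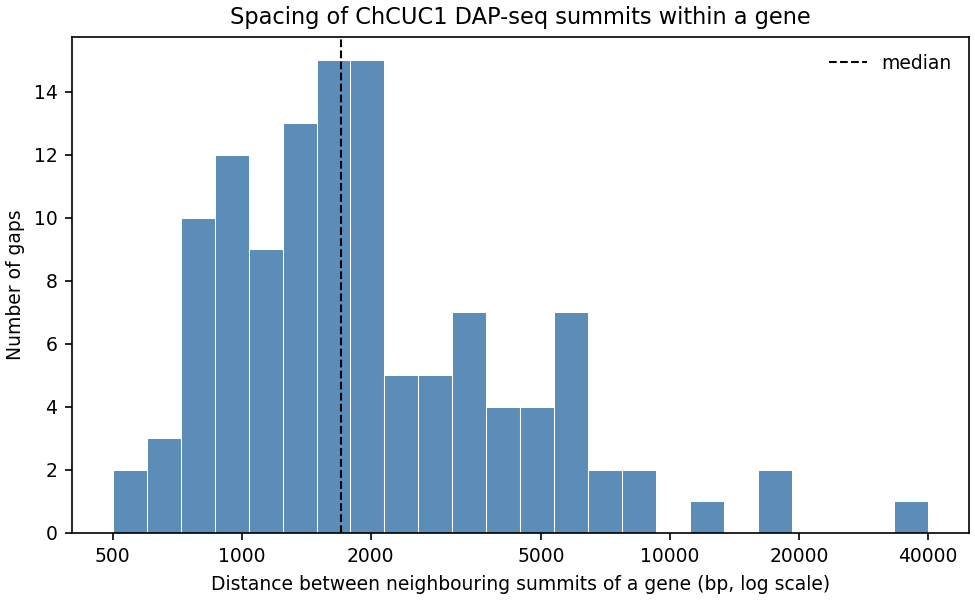
Histogram of the distance in bp (log scale) between neighbouring reproducible summits of the same gene, over the 119 gaps of the 110 genes, with the number of gaps on the vertical axis. The dashed line is the median of 1703 bp, and the distances run from 541 to 36138 bp.

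The nearer summits were to each other, the more often they had been given the same gene. Among neighbouring summits with an annotated gene, 27 of 37 pairs less than 1000 bp apart shared their gene (73.0%, 55.9 to 86.2%), as did 45 of 87 from 1000 to 2000 bp (51.7%, 40.8 to 62.6%). From 2000 to 3000 bp it was 14 of 62 (22.6%, 12.9 to 35.0%), and from 6000 to 20000 bp 9 of 294 (3.06%, 1.41 to 5.73%). Distances between gene starts were not measured. A peak was given the gene with the nearest start, and the other pairs at these distances fell to different genes. The count of 110 genes therefore does not hold all close pairs of peaks, and 39 of the 433 peaks without a held annotation outside the scaffold also lay within 2000 bp of an annotated peak, 9 of them within 2000 bp of a member peak.

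The closest pair was at CARHR250950, the match of AT4G02650, on chromosome 8, with summits at 1209720 and 1210261, 196 and 737 bp downstream of the gene start. Both peaks were weak, with fold enrichments of 2.51 and 2.51, and were annotated to the transcript end of the next gene, CARHR250940. The *BG3* match (CARHR167450), named for a beta-1,3-glucanase that cuts callose-type glucans, came next with summits 582 bp apart, at 19322342 and 19322924 on chromosome 5. These peaks also lay in the last exon and at the end of the adjoining gene CARHR167440, and had fold enrichments of 2.68 and 3.41. CARHR128100, the match of AT2G34020, had summits 641 bp apart in introns 5 and 6, of 3.20 and 3.17. In the *PSKR2* match (CARHR267010), which encodes a receptor kinase for the sulfated peptide phytosulfokine, both summits lay in exon 2, 655 bp apart, and the peaks reached 2.42 and 3.03. The fifth pair, 693 bp apart, lay in intron 9 and exon 10 of CARHR045250, the match of AT1G55550, with 3.82 and 2.75. All 5 pairs were called as a single peak in the longer pseudoreplicate list and as separate peaks in the whole-library list. In all, the longer list joined the peaks of 11 genes in this way, and the other lists joined none.

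At the other end, the *BLH5* match (CARHR119720), for a homeodomain protein of the BEL1-like class, had 3 peaks spread over 54091 bp of chromosome 4. Its summits lay 51069 and 14931 bp upstream of the gene start and 3022 bp downstream of it in exon 5, with fold enrichments of 3.18, 2.82 and 2.75. By the distance between neighbouring summits, next came CARHR099430, the match of AT3G23530, with summits 16304 bp apart, placed from starts of different transcripts, and fold enrichments of 7.27 and 3.09, and the *GH9C2* match (CARHR046540), named for an endoglucanase, with 11646 bp. The summits of CARHR153850 were 8999 bp apart and those of CARHR107010, the match of AT2G16750, 8959 bp. For such distant peaks the nearest start is a convention of the annotation, and no value here ties them to the gene. In all, 48 of the 229 member peaks (21.0%) had their summit over 3000 bp from the gene start. By the peak centre, this held for 48 member peaks and for 182 of the 1752 peaks of genes with 1 peak (10.4%). For 8 genes every peak lay beyond this distance.

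The gene start and strand of each gene were worked out from the annotated distances of its peaks, which gave 1 start for all peaks of 101 genes and starts of several transcripts for the other 9. In 53 genes (48.2%, 38.6 to 57.9%) all summits lay downstream of the start, in 50 genes (45.5%, 35.9 to 55.2%) the summits lay on both sides of it, and in 7 genes (6.36%, 2.60 to 12.7%) all were upstream. By peaks, 164 summits were downstream and 65 upstream. Genes with peaks on both sides spanned a median of 2584 bp between their outer summits (1878 to 3471 bp), and genes with downstream peaks alone 1355 bp (995 to 1847 bp).

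**Figure D2:**
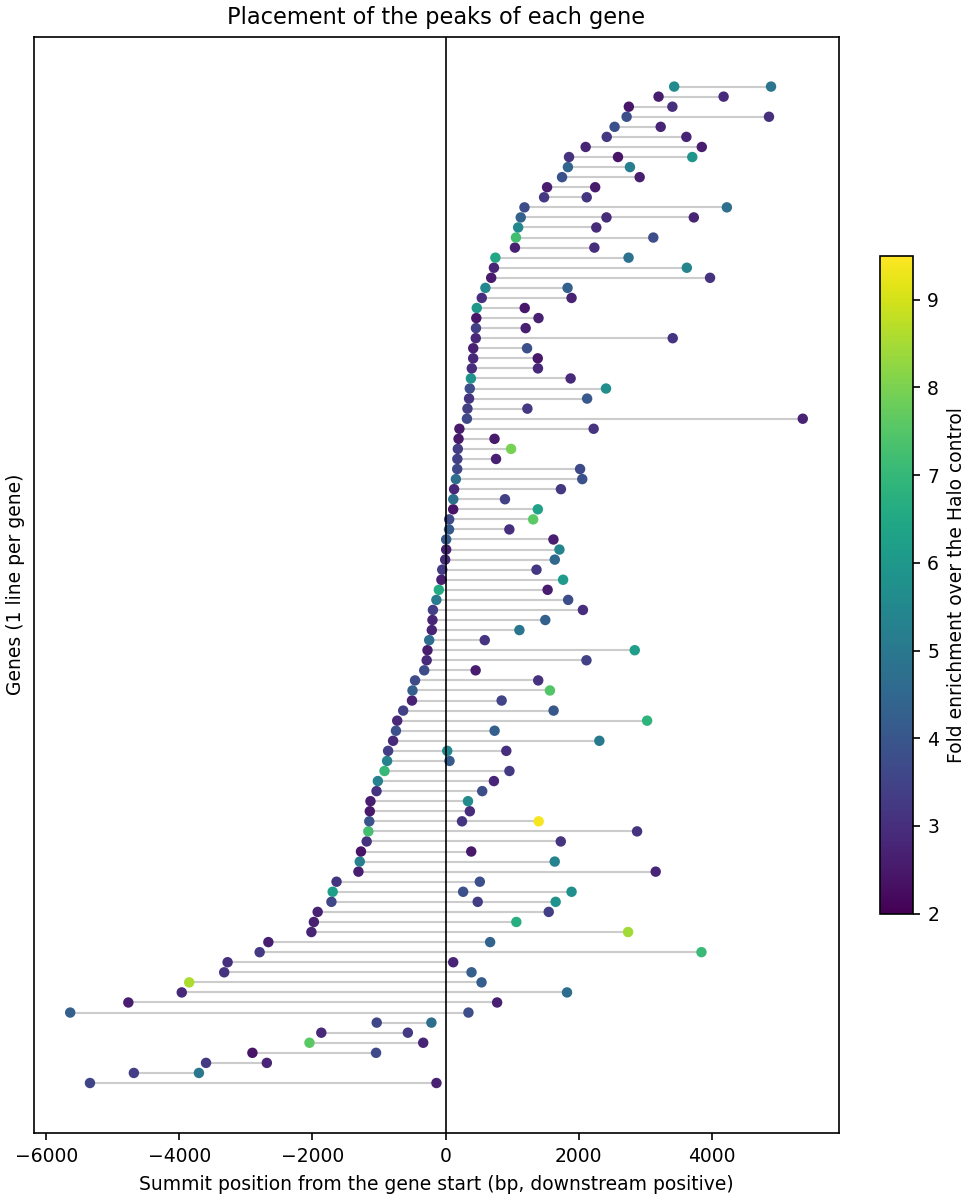
Summit position from the gene start in bp (downstream positive) for the 100 genes whose summits all lie within 6000 bp of it, 1 line per gene, with points coloured by fold enrichment over the halo control. From the bottom, genes with upstream peaks alone (7 in all) are followed by genes with peaks on both sides of the start and by genes with downstream peaks alone; 10 genes with more distant summits are not drawn.

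By gene structure, 65 member peaks were in an exon (28.4%, 22.6 to 34.7%), 38 in an intron (16.6%, 12.02 to 22.1%) and 36 in the promoter-TSS class, from 1000 bp before to 100 bp after the start (15.7%, 11.3 to 21.1%). Another 34 were around the transcript end (14.8%), 32 were intergenic (14.0%, 9.76 to 19.2%) and 24 in the distal promoter. The peaks of genes with 1 peak were in an exon in 34.5% of cases (32.3 to 36.8%), in an intron in 11.4% (9.91 to 12.9%) and in the promoter-TSS class in 20.2% (18.3 to 22.2%). The other classes held 15.1% of them at the transcript end (13.4 to 16.8%), 8.11% between genes (6.87 to 9.48%) and 10.7% in the distal promoter (9.32 to 12.3%). These differences were not tested, because the nearest-start rule enters both the class and the number of peaks of a gene. The most frequent combination was a peak in an exon or intron with a peak in the promoter, in 30 genes, before peaks in exons or introns alone, in 20 genes, and an exon or intron with the transcript end, in 15 genes. All peaks lay in exons in 9 genes and in introns in 5 genes, and 7 genes had several peaks in the same exon or intron. These counts take exons and introns of any gene, and both peaks of CARHR174850 lay in intron 3 of CARHR174840. In 16 genes at least 1 peak, and 21 peaks in all, lay in a structure of a gene other than the one assigned.

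The median fold enrichment was 3.32 over the 229 member peaks (3.15 to 3.57) and 3.29 over the 1752 others (3.22 to 3.33). Ranked by fold enrichment, the first 100 of all reproducible peaks included 19 member peaks (19%) and the first 500 included 68 (13.6%). Member peaks made up 9.42% of the whole list and 11.6% of the peaks with a gene outside the scaffold. Only annotated peaks could be members, and these were the ones with the highest −log10 p. Within a gene, the strongest peak had a median of 4.23 (3.83 to 4.70) and the weakest 2.86 (2.75 to 2.98), and the weakest peak of every gene was between 2.38 and 5.23. The ratio of the strongest to the weakest peak had a median of 1.32 (1.25 to 1.44), was under 1.2 in 36 genes, at least 1.5 in 40, at least 2 in 22 and at least 3 in 1. Over the 101 genes with 2 peaks, Spearman's rho of the first and the last peak along the gene was -0.02, and Pearson's r of their log2 values was -0.08. These points share the same libraries and control, and all have passed the same threshold.

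**Figure D3:**
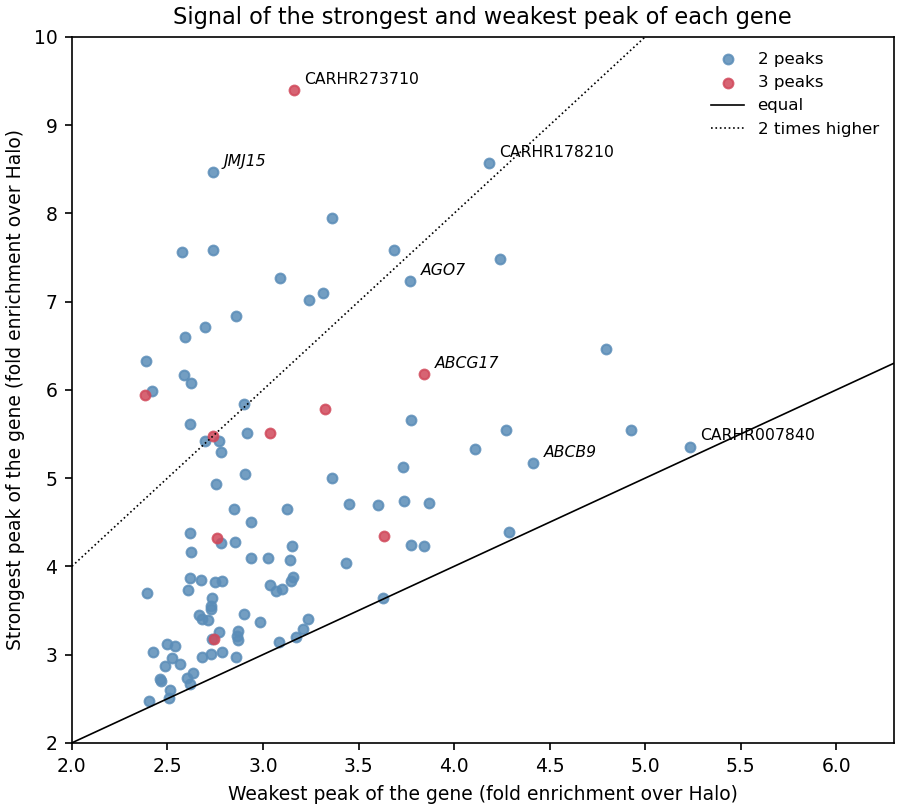
Fold enrichment over the halo control of the strongest (vertical) against the weakest peak (horizontal) of each of the 110 genes, in blue for 2 peaks and in red for 3 peaks. The solid line marks equal values and the dotted line a strongest peak 2 times higher; *JMJ15* and CARHR273710 stand far above the dotted line, and CARHR007840 is close to the solid one.

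The *JMJ15* match (CARHR129030), which encodes a histone H3 lysine demethylase, had the highest ratio, 3.09. Its exon 5 peak on chromosome 4, from 16956056 to 16956705, had a fold enrichment of 8.47 and was also called with 8.46, 8.63 and 5.89 in the whole-library, the longer and the shorter pseudoreplicate list. Its distal promoter peak, 2016 bp upstream of the start, reached 2.74, was called with 2.88 and 2.78 in the first and second of these lists and was absent from the third. The exon 5 peak was thus the higher one in each list that had both.

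Of the other 4 genes with a high ratio, CARHR273710 (2.97) is described among the genes with 3 peaks. CARHR080230, the match of AT3G05760, had intergenic peaks of 7.56 and 2.58, 8821 and 4435 bp downstream of its start. CARHR256770, the match of AT5G51260, had 7.59 in the distal promoter, 2045 bp upstream, and 2.74 at 335 bp upstream. CARHR169610, the match of the pirin gene *PRN*, had 6.33 in exon 7 and 2.39 at 115 bp downstream of the start.

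Among the 5 genes with the highest weakest peak, some had peaks of nearly equal height. At CARHR007840, without an *A. thaliana* match, the peaks in exon 2 and in the distal promoter, 2931 bp apart, had 5.36 and 5.23, the highest weakest peak of any of the 110 genes. In the 3 lists from single libraries its exon peak had 5.54, 5.31 and 5.01, and its promoter peak 5.30, 5.61 and 4.11. The order of these peaks was reversed in the longer pseudoreplicate list, so their small difference was within the spread of the lists. CARHR070480, the match of AT1G76970, had intergenic peaks of 5.55 and 4.92, and CARHR107010 had 4.39 and 4.28. CARHR031690 was less even, with 6.46 in its exon and 4.79 behind it, a ratio of 1.35. The smallest ratios were 1.001 at CARHR250950, 1.004 at CARHR276020, the match of AT5G62240, and 1.009 at CARHR128100, before 1.017 at *OCT1* and 1.018 at *FERONIA*.

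Where 1 peak lay on each side of the start, the downstream peak was more often the higher one. This held for 30 of 44 such genes with 2 peaks (68.2%, 52.4 to 81.4%), and the upstream peak was higher in 14. The upstream peaks had a median fold enrichment of 3.06 (2.79 to 3.37) and the downstream peaks of 3.802 (3.24 to 4.23), with a median ratio of 1.18 (1.02 to 1.34). In genes with 1 peak, the median was 3.39 in exons and 3.46 in introns. It was 3.28 in the promoter-TSS class, 3.13 in the distal promoter, 3.14 at the transcript end and 3.11 between genes. Downstream peaks include peaks at the transcript end and between genes, as at *GAUT2* and CARHR091380, so these classes do not match the 2 sides of the start. A higher downstream peak is thus not shown to be particular to genes with several peaks, and no difference was tested. The peak nearer to the start was the higher one in 54 of 101 genes with 2 peaks (53.5%, 43.3 to 63.5%).

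Each of the 9 genes with 3 peaks had its own pattern, and the middle peak along the gene was the highest in 1 of them. CARHR273710, without an *A. thaliana* match, held the peak that ranked 2 by fold enrichment in the whole reproducible list. This peak, on chromosome 8 from 17702339 to 17702864 in intron 4, had 9.39, with 8.30, 9.30 and 10.03 in the whole-library, the longer and the shorter pseudoreplicate list. A peak in intron 1, 248 bp downstream of the start, had 3.16, and a distal promoter peak, 1146 bp upstream, had 3.98. The intron 4 peak was more than 2 times as high as the others in each list.

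The *ABCG17* match (CARHR165120), for an ABC transporter of the G subfamily, carried 3 peaks of 6.18, 3.84 and 5.72 at 1696 bp upstream and at 265 and 1895 bp downstream of the start, the last 2 in its single exon. Its outer peaks were higher than the middle one in each list, with 5.97, 3.89 and 5.47 in the whole-library list, 6.29, 4.45 and 4.84 in the longer and 5.80, 3.58 and 5.05 in the shorter pseudoreplicate list. CARHR075740, the match of AT3G01290, a gene of the hypersensitive-induced reaction family, was the gene with the highest peak in the middle. It had 5.51 at 26 bp from the start of a transcript, between 3.35 upstream and 3.04 downstream, the last at the transcript end of CARHR075750. At CARHR265300, the match of the exocyst subunit gene *EXO70A2* (AT5G52340), the peak in intron 5 had 5.78, the peak in intron 2 had 3.32 and the promoter peak had 3.57.

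In the *GSO2* match (CARHR178200), which encodes a leucine-rich repeat receptor kinase for diffusion barriers such as the embryonic cuticle, summits 1131, 2420 and 3733 bp downstream of the start were nearly evenly spaced, with gaps of 1289 and 1313 bp. The fold enrichment was 4.32, 2.94 and 2.76, the first 2 peaks lying in exon 1 and the last at the transcript end, where the shorter pseudoreplicate list had no call. CARHR276440, the match of AT5G62630, had peaks of 3.08 in intron 5, 2.38 at the transcript end and 5.94 behind it, with gaps of 736 and 1117 bp. CARHR224840, the match of AT4G18070, had 2.74 at the transcript end and 2.91 and 5.48 further downstream, both in intron 3. At CARHR174840, the match of the TIR-NBS-LRR gene AT5G46270, values were close, at 4.19, 3.63 and 4.34, over 12988 bp. The ninth gene, *BLH5*, is described above.

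**Figure D4:**
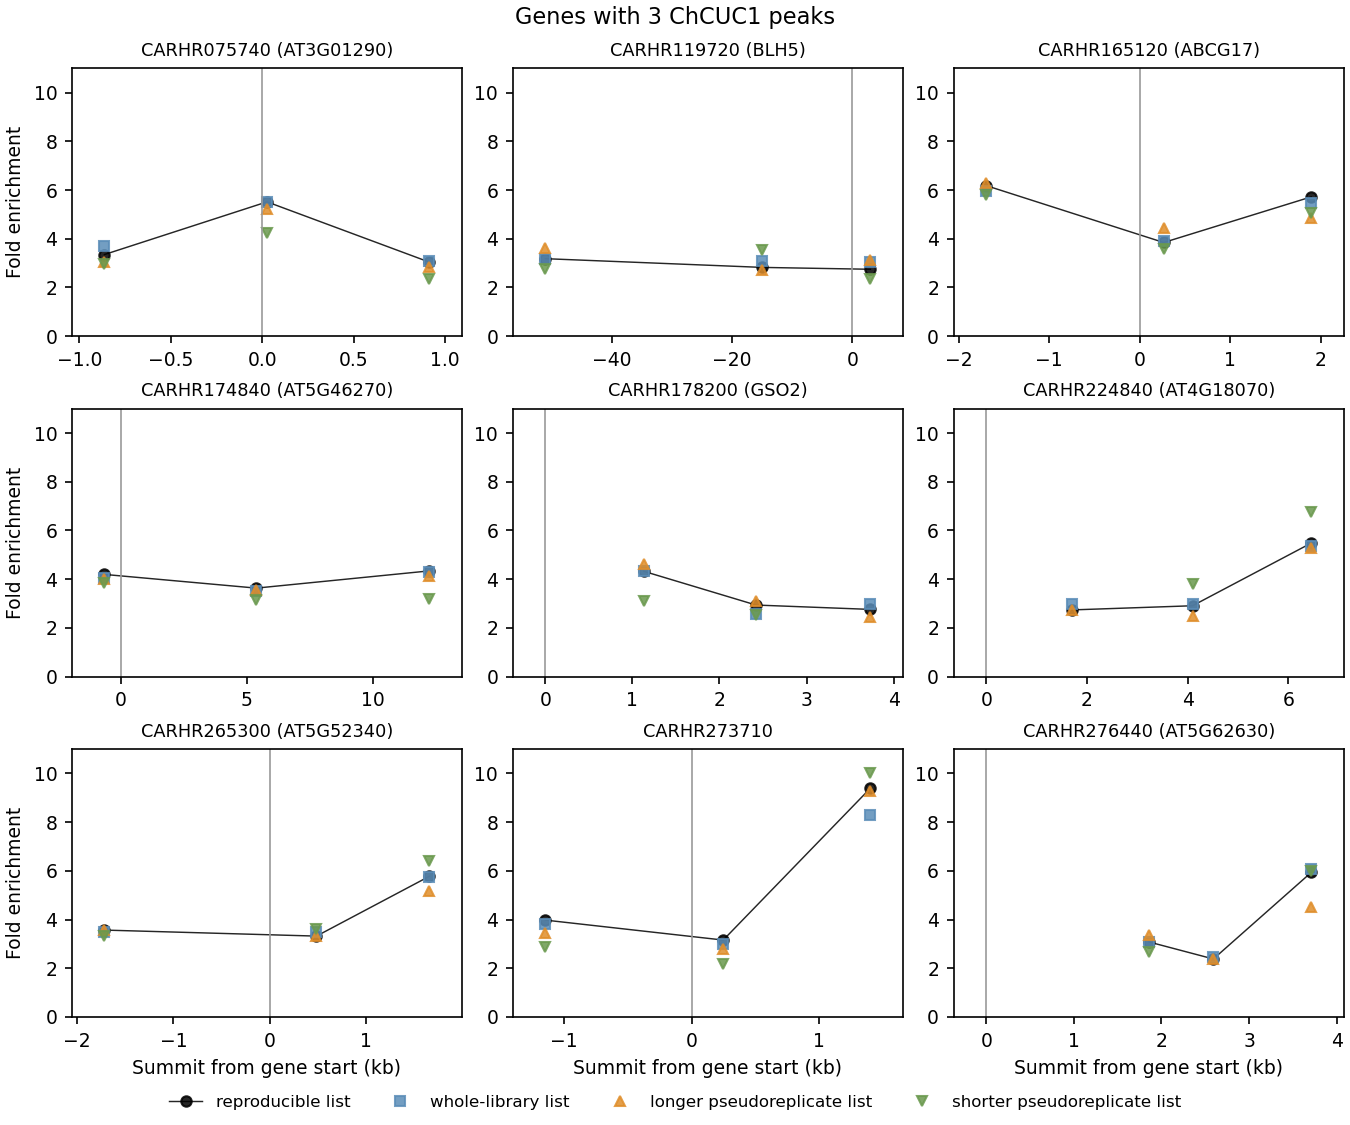
Fold enrichment over the halo control (vertical) against summit position from the gene start in kb (horizontal; each panel has its own range) for the 9 genes with 3 peaks. Black points joined by lines are the reproducible list and coloured points the calls in the 3 single-library lists; the grey line is the gene start. At CARHR273710 the last peak reaches 9.39, and at *BLH5* the 3 peaks are within 2.75 and 3.18.

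The genes with several peaks that have an *A. thaliana* match included regulators, receptors, transporters and enzymes. The groups below were picked from these matches with their peaks known, so they describe and do not show a preference. A total of 34 genes fell into 6 groups.

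Among genes of transcription, chromatin and small RNA, 5 genes had 11 peaks, between 2.62 and 8.47. The *AGO7* match (CARHR062360) encodes the Argonaute protein that works with miR390 in the production of trans-acting small RNAs, which act on leaf polarity and phase change in *A. thaliana*. Its exon 2 peak, on chromosome 2 from 15291178 to 15291696 and 1059 bp downstream of the start, had 7.23, and its exon 3 peak, 3124 bp downstream, had 3.77. In the whole-library, the longer and the shorter pseudoreplicate list the exon 2 peak had 7.59, 6.92 and 5.54 and the exon 3 peak 4.35, 3.51 and 3.14. The exon 2 peak was the higher one in every list. The *GATA23* match (CARHR186640), for a GATA factor of lateral root founder cells, had 5.61 at 338 bp downstream of its start, in the promoter-TSS class of CARHR186630, and 2.62 in the distal promoter. The *DYT1* match (CARHR227920), for a bHLH factor of the tapetum, had intergenic peaks of 3.17 and 2.73, 2424 and 3621 bp downstream of the start.

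Among the 9 genes of receptor kinases and peptide ligands, 19 peaks had 2.42 to 5.84, and the median ratio of strongest to weakest peak was 1.17. The highest peak was at the *SRF5* match (CARHR072640), a STRUBBELIG-family receptor gene, with 5.84 in intron 2 and 2.90 in exon 10. The *BAM3* match (CARHR227100), whose product is a receptor for CLE peptides in the phloem, had 4.64 in exon 1 and 2.85 at 3965 bp upstream. The *FERONIA* match (CARHR161120), for a receptor of RALF peptides that watches over the cell wall, had 3.14 in exon 2 and 3.09 upstream of another transcript start, 5993 bp away. The weaker *BAM3* peak was not called in the shorter pseudoreplicate list, and the promoter peak of *FERONIA* not in the longer one.

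The *CRK31* match (CARHR255070), for a cysteine-rich receptor-like kinase, had 4.23 in exon 1 and 3.84 at 745 bp upstream. The adjoining gene CARHR255080 also had 2 peaks, of 5.42 in intron 4 and 2.77 in exon 1, placed from starts of different transcripts. The exon 1 summits of these neighbours lay 738 and 728 bp downstream of the starts they were placed from. The *CRK13* match (CARHR230440) had 2.96 in exon 1 and 2.52 in the distal promoter. The *EPFL5* match (CARHR098680), for a secreted peptide of the EPIDERMAL PATTERNING FACTOR-LIKE family, had 2.64 at 1309 bp upstream and 2.79 at 3160 bp downstream. CARHR099900, the match of the receptor kinase gene AT3G24240, had 2.87 and 3.17 in exons 1 and 2, and neither was called in the shorter pseudoreplicate list. All 6 peaks of these last 3 genes were below the member median of 3.32.

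The 8 transporter genes had 17 peaks of 2.42 to 6.18, and every peak overlapped a call in each list for 6 of them, among them *MSL8*, whose peaks were 1 joined call in the longer pseudoreplicate list. The *SULTR1;3* match (CARHR022500), for a sulfate transporter of the phloem, had 3.77 in intron 1 and 5.66 in exon 9. The exon 9 peak was the higher one in each list, at 5.68, 5.30 and 6.52 against 4.27, 2.86 and 3.61. The *ABCB9* match (CARHR224820), an ABC transporter gene of the B subfamily, had 4.41 in intron 5 and 5.17 in intron 7, 933 bp apart.

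The matches of *ABCA3* (CARHR156420) and AT3G47790 (CARHR156470), ABC transporter genes of the A subfamily on chromosome 5, had like patterns. At *ABCA3* a promoter-TSS peak of 2.91 was 788 bp upstream of the start and a peak of 5.04 lay in intron 9, 2313 bp downstream. At CARHR156470 a promoter-TSS peak of 2.75 was 206 bp upstream and a peak of 4.93 lay in intron 5, 1111 bp downstream. All 4 peaks were within a stretch of 42937 bp. No source at hand says how reads that match related copies were counted, so the values at related neighbours are uncertain to that extent. Whether the *CRK31* match and CARHR255080, without an *A. thaliana* match, are related copies was not tested. The *ABCG33* match (CARHR132310) had 3.79 in exon 10 and 3.04 in intron 17. The *MSL8* match (CARHR107330), for a mechanosensitive channel of pollen, had 5.99 and 2.42 at 721 bp from each other. Its peak of 5.99 was annotated to the transcript end of another gene, CARHR107340. The *OCT1* match (CARHR066230), for an organic cation transporter, had 2.66 and 2.62.

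Of hormone and sulfur metabolism enzymes, the *AKN2* match (CARHR246760), for an adenylyl-sulfate kinase that supplies activated sulfate to glucosinolate synthesis, had 5.54 in exon 3 and 4.27 at the transcript end. The *YUC7* match (CARHR127240), for a flavin monooxygenase of auxin synthesis, had 3.77 in exon 1, 345 bp downstream of the start, and 4.24 at 5642 bp upstream. The *ACS5* match (CARHR279800), for a synthase of the ethylene precursor, had 3.40 in exon 2 and 3.23 in exon 3, 901 bp apart. The exon 1 peak of *YUC7* and the exon 3 peak of *ACS5* were not called in the shorter pseudoreplicate list.

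Among the 6 cell wall and lipid genes, the *XYN1* match (CARHR284140), for a xylanase, had 6.71 in exon 4 and 2.70 in the distal promoter, and the *GAUT2* match (CARHR141780), of the pectin galacturonosyltransferase family, had 6.17 at the transcript end and 2.58 at 271 bp upstream. The endoglucanase matches *CEL5* (CARHR023230) and *GH9C2* had 3.29 and 3.21, and 3.83 and 2.79. The *FAR6* match (CARHR166840), of the fatty acyl reductases, had 3.64 in intron 1 and 2.73 behind it. The 3 cytochrome P450 genes had fold enrichments of 3.45 and 2.67 at *CYP708A1* (CARHR045650), 2.47 and 2.40 at *CYP709B2* (CARHR142300) and 3.26 and 2.77 at *CYP76G1* (CARHR162870).

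**Figure D5:**
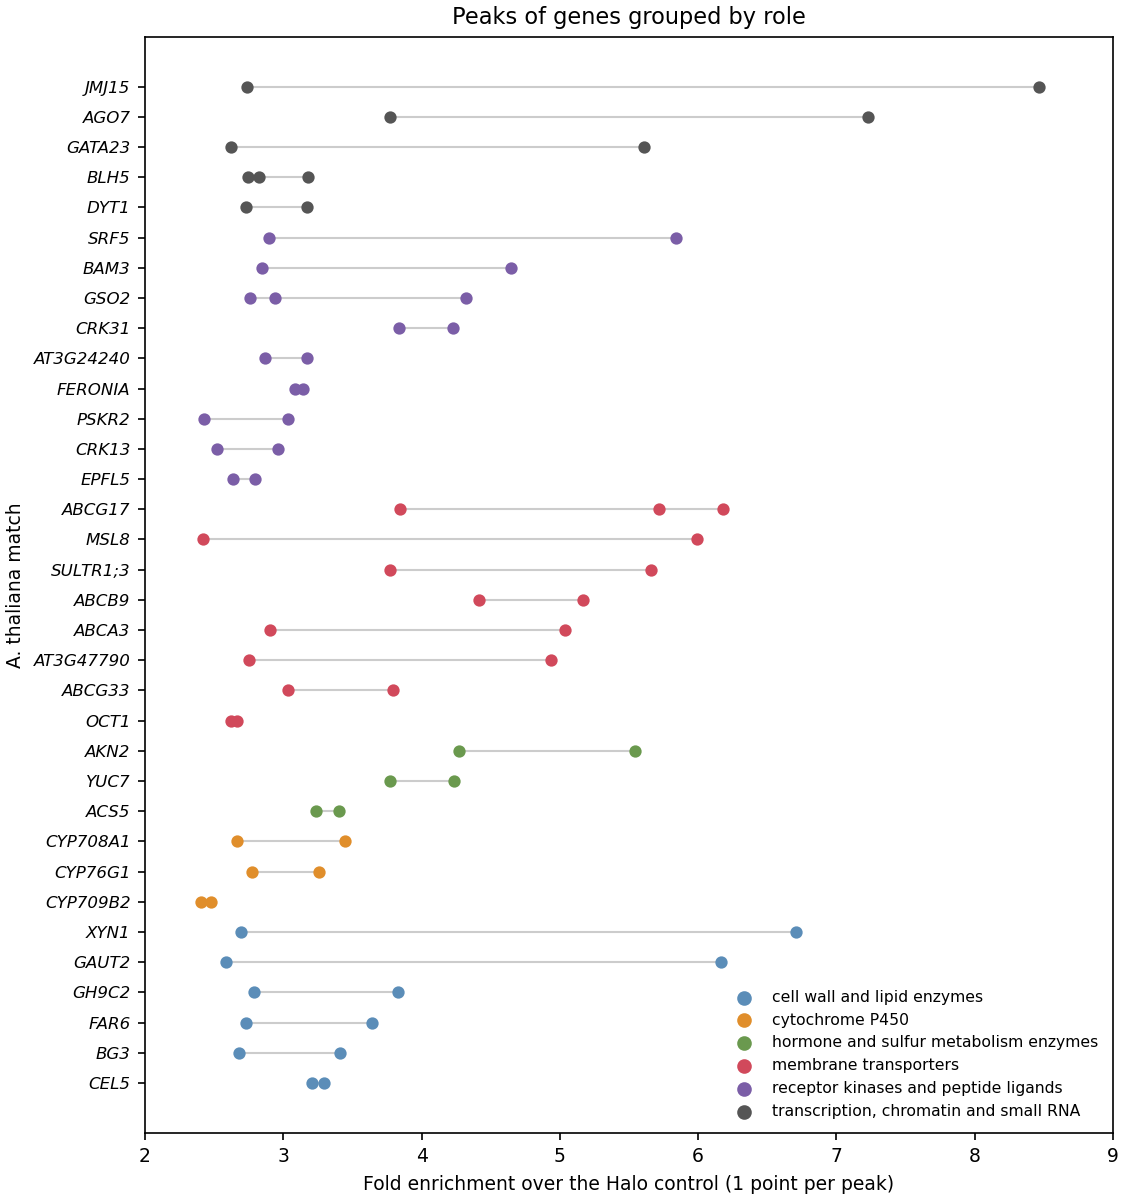
Fold enrichment over the halo control (horizontal) of each reproducible peak of the 34 genes in the 6 groups, 1 line per gene, named by the *A. thaliana* match and coloured by group. The widest lines are *JMJ15* (2.74 to 8.47) and *XYN1* (2.70 to 6.71) and the shortest include *FERONIA* (3.09 to 3.14).

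Several of the genes lay near each other, and in 3 pairs the identifiers were next to each other. In 4 stretches of up to 60 kb, a pair of genes held 5 member peaks. On chromosome 6, *GSO2* and CARHR178210, the match of the DNA glycosylase gene AT5G44680, held them within 11274 bp, where CARHR178210 had a peak of 8.57 at 3853 bp upstream of its start and 4.18 in intron 1. Also on chromosome 6, CARHR174840 and CARHR174850 held theirs within 26383 bp, and both peaks of CARHR174850, of 4.10 and 2.94, lay in intron 3 of CARHR174840. On chromosome 7, *ABCB9* and CARHR224840 held theirs within 13700 bp, and on chromosome 8, CARHR273680, with 3.73 and 2.61, and CARHR273710 within 9498 bp. The peak of 2.61 was annotated to the transcript end of another gene, CARHR273690.

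Most member peaks were called again in the lists from single libraries, and the weaker peak of a gene less often than the stronger one. The whole-library list had all 229, the longer pseudoreplicate list 220 (96.1%, 92.7 to 98.2%) and the shorter one 180 (78.6%, 72.7 to 83.7%, against 74.4% of all annotated peaks outside the scaffold and 65% of all reproducible peaks), where any shared base counted. In each of the 3 lists were 174 member peaks (76.0%, 69.9 to 81.4%), against 72.4% of all annotated peaks outside the scaffold and 62.5% of all reproducible peaks. Of the 1752 annotated peaks of other genes outside the scaffold, the whole-library list had 1749 (99.8%). The longer pseudoreplicate list had 1695 of them (96.7%). These shares of member peaks were thus near those of the annotated peaks. The strongest peak of a gene was in each list for 98 of 110 genes (89.1%, 81.7 to 94.2%) and the weakest for 67 (60.9%, 51.1 to 70.1%). All peaks overlapped a call in each list for 62 genes (56.4%, 46.6 to 65.8%), some but not all for 41 and none for 7. The 62 include 7 genes whose peaks shared a joined call in the longer list, and the count fell to 5 where 50% of each peak had to be shared and was 101 without the shorter list. The reproducible list was made from the ChCUC1 libraries, so these lists do not replicate it.

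The order of the peaks within a gene was mostly the same from list to list. The strongest peak of the reproducible list was also the higher one in 100 of 110 genes in the whole-library list, in 80 of 90 in the longer and in 60 of 67 in the shorter pseudoreplicate list, counting genes with separate calls for both. In 55 genes both peaks were separate in all 3 lists, and in 42 of these the order held in each list. For the 24 of them with a ratio of at least 1.5 it held in 24. This ratio came from the reproducible list, made from the same libraries, so the choice of these genes in part fixed their order. At *PSKR2*, with a ratio of 1.25, the shorter pseudoreplicate list had the order reversed, with 3.19 and 2.55. Summits lay a median of 7, 8.5 and 12 bp from those of the whole-library, the longer and the shorter pseudoreplicate list.

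Of the 110 genes, 19 (17.3%, 10.7 to 25.7%) were also on the list of genes bound by ChCUC1 in vitro and also in ChIP-seq, as were 319 of the 1752 genes with 1 peak (18.2%, 16.4 to 20.1%). These shares were close, and their difference was not tested. The 19 genes included *BLH5*, *DYT1*, *SRF5*, *CEL5*, *GH9C2*, *BG3* and *CYP76G1*. The highest peak among them was the one of 7.48 in exon 5 of the *IQD4* match (CARHR118390), for an IQ-domain protein, named here after its value was seen. No gene with several peaks was among the targets that the study took from binding and expression together. The share of these targets among all genes with a peak was not counted, so this is no result about genes with several peaks.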

How the data were processed

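Alignment and peak calling were done by the authors. Bowtie, MACS2 and bedtools stand in the processing notes of the submitters, without versions. No genome build is named there. Fold enrichment is the authors' deposited ratio over the halo control. The −log10 of p and q, the summit and the scaled irreproducible discovery rate score, from 540 to 1000, are also deposited values. The names of the 3 lists from single libraries state removal of duplicates, the pooled control and a p-value threshold of 0.01.

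Reproducible peaks were joined to the study's annotation by chromosome, start and end, and genes with at least 2 held peaks were taken. Strand and gene start were solved from the annotated distances (within 2 bp for 1 start), and positions are of summits. Shares have 95% exact binomial intervals and medians 95% order-statistic intervals. Lists were compared at an overlap of 1 bp. Depth is unknown. The solving of starts and the overlaps were tested on simulated data. Python 3.11.15, pandas 2.3.3, NumPy 2.4.6, SciPy 1.17.1 and matplotlib 3.10.9 were used.

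Named genes were those with 3 peaks, 5 each with the closest and most distant summits, the highest weakest peak and the highest and lowest ratio, the 6 groups, and runs within 60 kb. The runs were tied, so all 4 are given. Members and lists were chosen with earlier results of these data known. No identifier matched the RefSeq gene table, and no sequence was used.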

Additional observations from a re-analysis of the deposited data

How the results depend on the processing

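No paired analysis was possible because no list names a replicate and all share a pooled control. Under the alternatives, 38 recomputed values stayed within 1.5 times the count or within the 95% interval, and 7 did not. The 110 genes came to 45 with peaks of a fold enrichment of at least 3. They came to 72 with peaks whose structure names the assigned gene, which also left out the 32 intergenic member peaks. With peaks in both remaining lists as each single-library list was left out, they came to 65 to 101, the lowest without the whole-library list, then 70 without the longer pseudoreplicate list. The median ratio of the strongest to the weakest peak was 1.83 by −log10 p. The 62 genes with every peak in each list came to 5 where 50% of each peak had to be shared, and to 62 to 101 with a list left out, the highest without the shorter pseudoreplicate list. Fewer peaks entered the stricter settings, and otherwise the cause was not tested. The median spacing stayed between 1499 and 1853 bp and the share of genes with peaks on both sides between 41.4 and 51.1%. Without read counts, no depth or replicate error can be given for a single peak.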
